A study of Danio rerio with 6 samples.

Results

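The 10 transcripts described here belong to the pimr genes, the Pim-related kinases of zebrafish (Danio rerio), and they were measured in adult testis tissue kept under basal conditions or exposed to Insl3. They were chosen by the study's own calls of a difference between these conditions and by their read counts. Of the 409 transcripts in that list of calls, 18 carry a pimr symbol. The 10 with the highest count summed over all 6 libraries were kept, out of 46260 transcripts in the counts. Both the list and the limit of 10 therefore rest on these same libraries. For the members the difference between the conditions is given as a description. Counts of members passing a p threshold are printed below, but they restate this choice and are no support. At the limit, pimr182 was the last one inside with 257 counts over the 6 libraries, and pimr167 was the first one outside with 223.

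RNAseq libraries were made from 3 control testes (basal) and 3 Insl3-treated testes of wild type adult males, and each testis gave 1 library. All tissue was cultured outside the body, first for 2 days without added hormone and then for 2 days with or without zebrafish Insl3 at 100 ng/mL. Insl3 is a peptide hormone of the testicular Leydig cells, and the study asked which testicular transcripts it changes. Total counts were between 20967304 and 28939006 in the basal libraries and between 21178283 and 25472401 in the Insl3 libraries. Sources used here do not say whether testes with the same replicate number came from the same male. In whole tissue, fewer cells of a type and less RNA per cell cannot be told apart.

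Pim kinases are serine/threonine kinases that are active as soon as they are made, so their activity is set largely by how much of the protein a cell produces. In mammals their genes are switched on by cytokine receptors through the Jak kinases and the Stat transcription factors, and the kinases support cell survival and cell cycle progression, for example by phosphorylating the death-promoting protein Bad. Zebrafish carries, beside pim genes, a very large group of Pim-related genes named pimr, many of them lying in tandem groups. The gene name table used here holds 180 genes with a pimr symbol, so the listed transcripts cover a small part of the family. What each single pimr kinase does is not given here.

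Members of such a family can be nearly identical in sequence, and reads that match several of them equally well may be lost or assigned to a relative. The sum over the members does not depend on how reads were split among them. Reads lost, or exchanged with pimr genes outside the members, would still affect that sum. Sequences of the members were not compared here. The listed symbols also overlap, since 2 genes with different identifiers (ENSDARG00000067762 and ENSDARG00000067767) both carry the symbol pimr59. They are called the first and the second pimr59 gene here, in the order of their summed counts. One listed gene outside the limit, pimr113 (ENSDARG00000093808), is named pimr115 in the gene name table. In the RefSeq gene table (assembly GRCz12tu), pimr58 lies near pimr201 and pimr130 near pimr136, each pair with at most 2 other protein-coding genes in between. The other members were not matched by symbol in that table.

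Summed over the 10 members, basal replicates 1, 2 and 3 gave 34.4, 57.5 and 55.3 CPM, the count scaled to the size of the library and to edgeR's TMM factor. In the Insl3 libraries the sum was 53.9, 102 and 129 CPM. Insl3 replicate 1 was thus within the basal range, and Insl3 replicates 2 and 3 were above it. The ratio of the group means was 1.94-fold (log2 ratio 0.95), and the spread within groups was 0.55 (pooled SD of log2 values, n = 3 each). Between libraries of the same number the sum was higher with Insl3 by 0.65, 0.83 and 1.22 log2 in pairs 1, 2 and 3. Without Insl3 replicate 3 the log2 ratio of the means was 0.67, and without Insl3 replicate 1 it was 1.24.

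**Figure D1:**
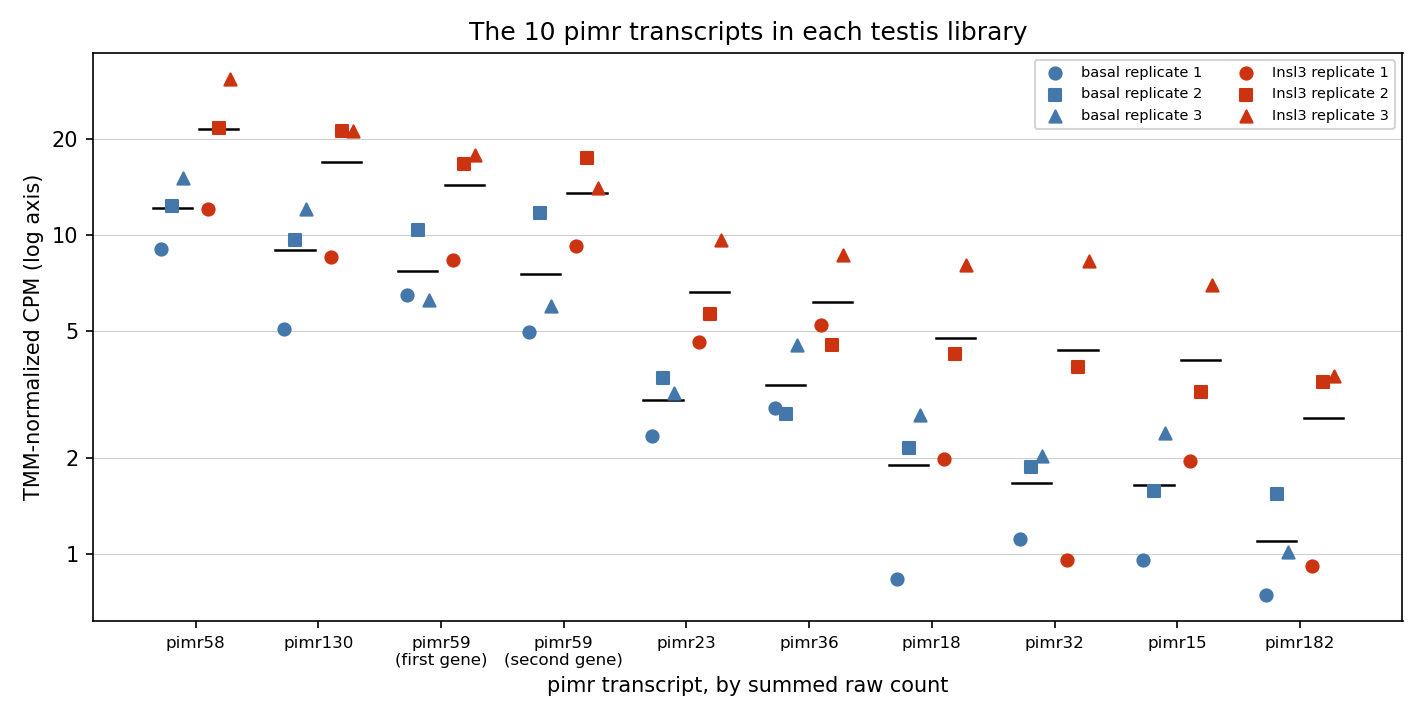
Each point is 1 testis library, with the TMM-normalized CPM on a log axis for the 10 pimr transcripts ordered by summed raw count (blue basal, red Insl3, symbol shape the replicate number, black line the group mean). Insl3 replicate 3 is the highest library for 9 of the 10 transcripts, and Insl3 replicate 1 lies above every basal library only for pimr23 and pimr36 and below every one only for pimr32.

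Most of the reads of the group fell on 4 transcripts, pimr58, pimr130 and both pimr59 genes, which together held between 65.0% and 76.6% of the summed member counts in each library. CPM is not scaled by transcript length, so this is an order of read numbers and not of RNA molecules. The transcript of pimr58 (ENSDART00000159723.1) had 292, 369 and 283 counts in basal replicates 1 to 3, while Insl3 replicates 1 to 3 had 317, 451 and 617. As CPM the basal libraries had 9.01, 12.4 and 15.1, and the Insl3 libraries 12.1, 21.7 and 30.9. Its lowest Insl3 value lay between its lower basal values, so the groups overlapped. The group means were 12.2 ± 3.05 and 21.6 ± 9.40 CPM (SD, n = 3 each), and the log2 fold change was 0.83 with a standard error (SE) of 0.37, the smallest difference among the members.

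For pimr130 (ENSDART00000136714.2) the basal libraries gave 5.09, 9.65 and 12.1 CPM and the Insl3 libraries 8.52, 21.1 and 21.2 CPM. Insl3 replicates 2 and 3 were almost level here, far above the basal libraries, while Insl3 replicate 1 was below 2 of them. Its log2 fold change was 0.92 (SE 0.44). The first pimr59 gene (ENSDART00000156209.2) had 6.48, 10.4 and 6.24 CPM in the basal libraries and 8.33, 16.8 and 17.8 CPM with Insl3, and the log2 fold change was 0.89 (SE 0.36). The second pimr59 gene (ENSDART00000097600.4) had 4.97, 11.7 and 5.97 CPM and, with Insl3, 9.21, 17.5 and 14.1 CPM, and the log2 fold change was 0.85 (SE 0.39). In both pimr59 genes basal replicate 2 stood above the other basal libraries and above Insl3 replicate 1, and the second one was the only member with its highest value in Insl3 replicate 2.

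The next transcripts by read number were pimr23 and pimr36. With 2.35, 3.55 and 3.20 CPM in the basal libraries and 4.62, 5.64 and 9.67 CPM with Insl3, pimr23 (ENSDART00000130560.2) was the only member whose groups did not overlap. Its means were 3.03 ± 0.62 and 6.64 ± 2.67 CPM (SD, n = 3 each). The log2 fold change was 1.13 (SE 0.36). The pimr36 transcript (ENSDART00000143407.2) had 2.87, 2.75 and 4.53 CPM in the basal libraries and 5.24, 4.53 and 8.67 CPM with Insl3, and its log2 fold change was 0.86 (SE 0.36). It was the exception to the order of the libraries, because Insl3 replicate 2 and not replicate 1 was its lowest Insl3 value, and that value fell just short of basal replicate 3.

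Larger ratios and larger spread were found together in pimr18, pimr32 and pimr15, which had fewer reads. The members were chosen from calls, and a transcript with large spread needs a larger ratio to be called. Nothing is therefore read from this pattern. For pimr18 (ENSDART00000155448.1) the values were 0.833, 2.14 and 2.72 CPM in the basal libraries and 1.99, 4.24 and 8.07 CPM with Insl3, and the log2 fold change was 1.33 (SE 0.62). For pimr15 (ENSDART00000125710.2) they were 0.957, 1.57 and 2.40 CPM and, with Insl3, 1.95, 3.23 and 6.97 CPM, and the log2 fold change was 1.31 (SE 0.56). In both, the same-numbered pairs differed by 0.96 to 1.54 log2, and Insl3 replicate 3 was far above the rest. The pimr32 transcript (ENSDART00000137482.2) had 36, 56 and 38 counts in the basal libraries and 25, 80 and 165 with Insl3, or 1.11, 1.88 and 2.03 CPM against 0.956, 3.85 and 8.27 CPM. Its log2 fold change of 1.38 (SE 0.71) was the largest of the 10 and also the least certain, since Insl3 replicate 1 was the lowest of all 6 libraries and without Insl3 replicate 3 the log2 fold change was 0.51.

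The transcript with the fewest reads among the members, pimr182 (ENSDART00000165614.1), had 24, 46 and 19 counts in the basal libraries and 24, 72 and 72 with Insl3. As CPM the basal values were 0.741, 1.54 and 1.01 and the Insl3 values 0.917, 3.47 and 3.61. Insl3 replicate 1 was again inside the basal range, and the log2 fold change was 1.27 (SE 0.58). By mean CPM, pimr182 stood at percentile 24.3 of the 36363 tested transcripts and pimr58 at percentile 71.0, so the members reached from low to moderately high read numbers.

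Across the members the libraries came in much the same order. Basal replicate 1 was the lowest basal library for 8 of the 10, Insl3 replicate 1 the lowest Insl3 library for 9, and Insl3 replicate 3 the highest of all for 9. Insl3 replicates 2 and 3 both exceeded every basal library for 9 members, while 8.78% of all tested transcripts did so. Insl3 replicate 1 exceeded every basal library only for pimr23 and pimr36. Groups did not overlap for 1 of the 10 members, against 2.55% of all tested transcripts with higher Insl3 values. Since the members were taken from calls made on this contrast, nothing is read from these shares.

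**Figure D2:**
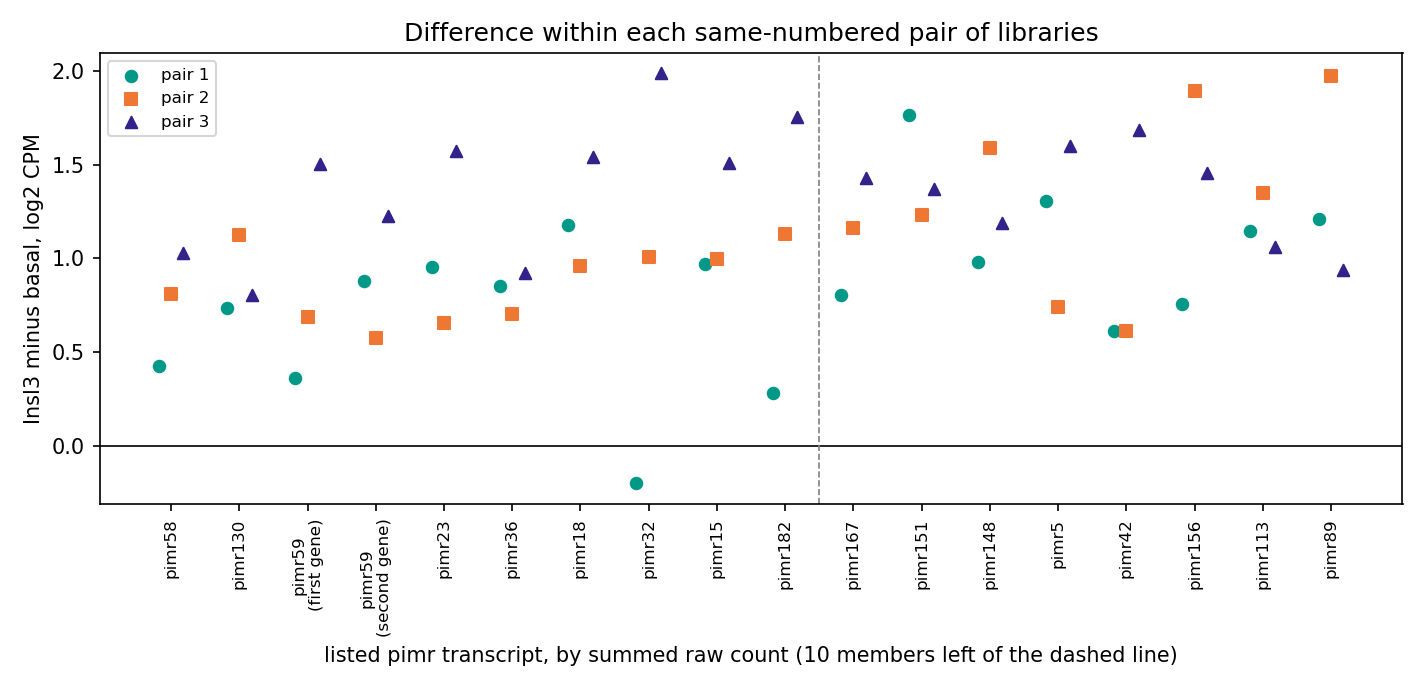
Points give Insl3 minus basal in log2 CPM within each same-numbered pair (circle pair 1, square pair 2, triangle pair 3) for the 18 listed pimr transcripts, the 10 members to the left of the dashed line. A single point lies below 0, that of pimr32 in pair 1 at -0.20, and pair 3 gives the largest difference for 9 of the 10 members.

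Set against the basal library of the same number, 9 of the 10 members were higher with Insl3 in all 3 pairs (20.5% of all tested transcripts were), with pimr32 in pair 1 as the exception at -0.20 log2. In raw counts 8 were, because pimr182 had 24 counts in both libraries of pair 1. The median difference over the members was 0.79, 0.88 and 1.50 log2 in pairs 1, 2 and 3, while over all tested transcripts it was 0.04, -0.00 and 0.02. Pair 3 gave the largest difference for 9 members and pair 2 for pimr130. The range within a member was wide for pimr32, from -0.20 to 1.99, and narrow for pimr36, from 0.70 to 0.92.

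Over the 10 members the median log2 fold change was 1.03, from 0.83 to 1.38, and over all 36363 tested transcripts it was 0.01, with 50.7% of them above 0. With library totals as the scaling the median of the members was 0.93 and that of all tested transcripts -0.09. Standard errors of the members ran from 0.36 to 0.71 in the TMM fit of condition alone, which ignores the pairs. With the replicate number as a block each was smaller, from 0.15 for pimr130 to 0.38 for pimr32. In edgeR's quasi-likelihood test 0 of the 10 members had an adjusted p under 0.05, as had 0% of all tested transcripts, and 3 had an unadjusted p under 0.05 in the higher direction, where the background was 0.542%. With library totals it was 3 again (background 0.314%). With the replicate number as a block these numbers were 0 (background 0%) and 10 (background 7.4%), and with DESeq2 they were 0 (background 0%) and 10 (background 0.674%). DESeq2 with the block, a fit added after seeing the data, gave an adjusted p under 0.05 for 5 members, against 1.08% of all tested transcripts. The count of 3 was 0 without basal replicate 1, 0 without Insl3 replicate 3, 6 without basal replicate 3 and 9 without Insl3 replicate 1. Over all transcripts, in either direction, the count of 538 was 610, 170, 1472 and 885 in these 4 fits, in the same order. The share in the higher direction is not given for these 4 fits, so the member counts stand without a matching background. These counts restate the choice of the members and are no independent support for it.

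**Figure D3:**
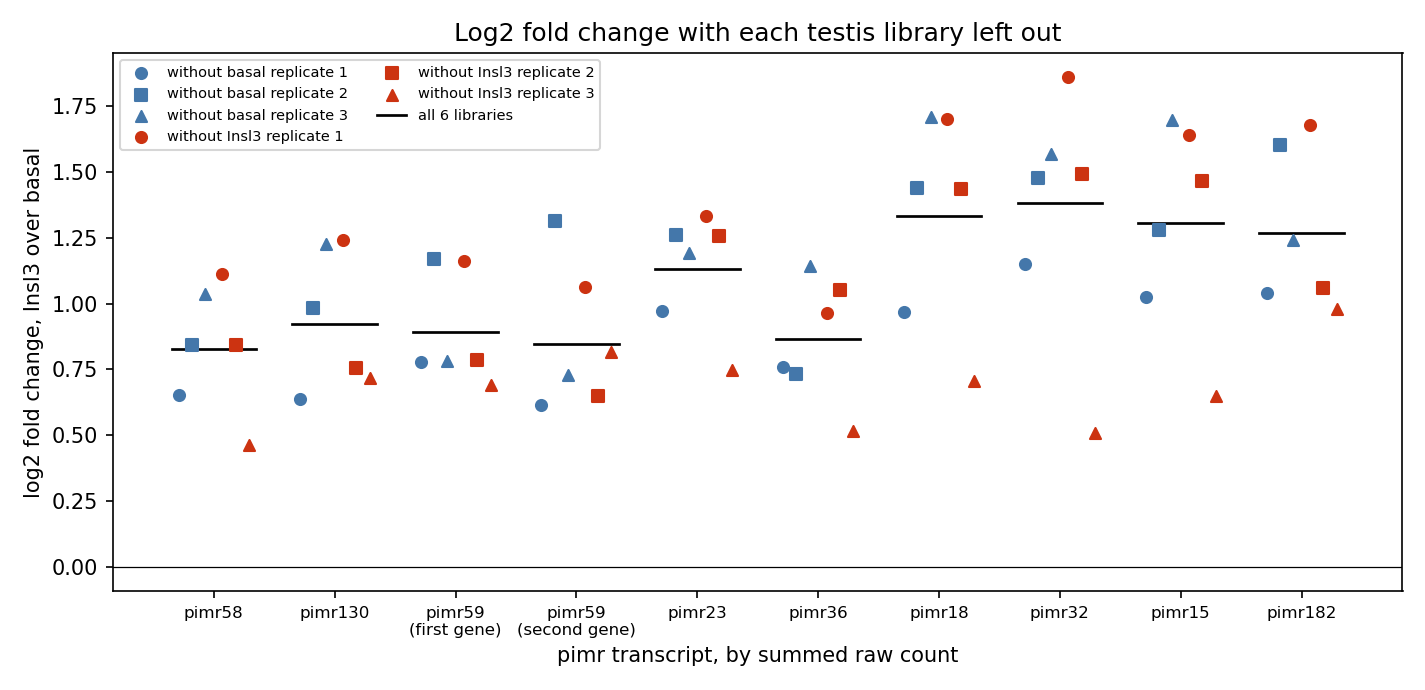
The log2 fold change of Insl3 over basal is plotted for each member with all 6 libraries (black line) and with 1 testis library left out (blue a basal, red an Insl3 library, symbol shape the replicate number). All points lie above 0, and for 8 of the 10 members the lowest point is the fit without Insl3 replicate 3. The members were called on these same 6 libraries.

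Leaving out 1 library changed the size of the differences but not their direction. Because the members were called on these same libraries, the unchanged direction is no independent support. Without Insl3 replicate 3 the median of the members was 0.70 log2, and without Insl3 replicate 1 it was 1.29. The fits without Insl3 replicate 3 gave 0.46 for pimr58, 0.51 for pimr36, 0.65 for pimr15 and 0.71 for pimr18. For pimr130 and the second pimr59 gene the lowest values, 0.64 and 0.62, came without basal replicate 1.

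The relative make-up of the group was compared within libraries, which does not depend on scaling. The share of pimr58 in the summed member counts was between 21.5% and 27.3% in the basal libraries and between 21.3% and 23.9% with Insl3. That of pimr32 was between 3.23% and 3.66% under basal conditions and 1.77%, 3.78% and 6.40% in Insl3 replicates 1, 2 and 3. The second pimr59 gene varied most among the basal libraries, from 10.8% to 20.3%, and held 17.1%, 17.1% and 10.9% with Insl3. In pimr23, pimr32 and pimr182 each Insl3 share lay outside the basal range, but on both sides of it, and no member had all 3 Insl3 shares above or all 3 below its basal range.

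To see how the members varied within the groups, the group mean was removed from each log2 CPM. This takes out the difference between the group means. The calls also depend on the spread within groups, so the choice of the members may still bear on these deviations. The members' mean deviation was -0.49, 0.25 and 0.24 for the basal libraries in order of their number, and -0.81, 0.15 and 0.66 for the Insl3 libraries. Both libraries with the number 1 were thus low. Pairwise Pearson correlations of the deviations over the 6 libraries had a median of 0.81 among the members, and 44 of the 45 were positive. The median of a member with all other tested transcripts was -0.04. That median does not show how often correlations as high as 0.81 occur outside the family. Set against the members' mean, which is a different measure, many of the 369 named listed transcripts outside the family were above 0.81. The highest was leap2 at 0.99, so high co-variation is not particular to the members. These are descriptions over 6 points from which 2 group means were taken, and the points share library depth and scaling.

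**Figure D4:**
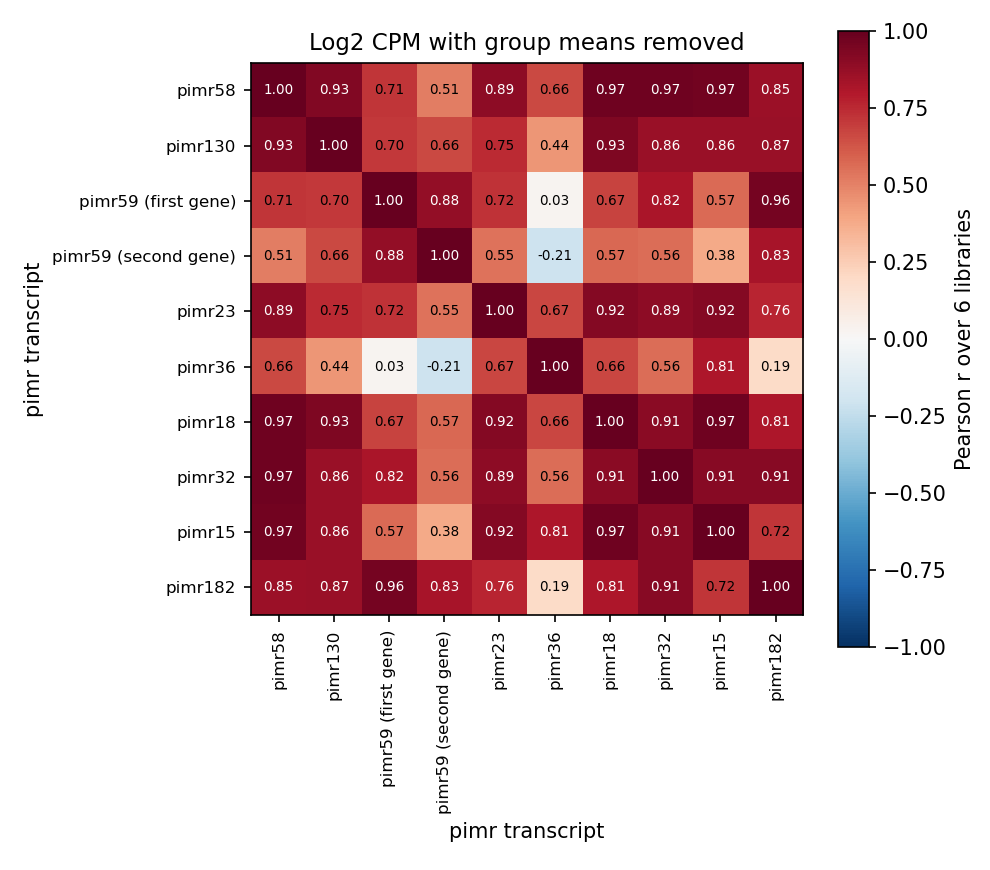
Pearson correlation between each pair of the 10 members over 6 libraries, after removing the group means from log2 CPM (red positive, blue negative). pimr58, pimr18, pimr32 and pimr15 are mutually between 0.91 and 0.97, and pimr36 with the second pimr59 gene is the 1 negative pair at -0.21.

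Inside the group, pimr58, pimr18, pimr32 and pimr15 followed each other most closely, with correlations from 0.91 to 0.97. Both pimr59 genes and pimr182 resembled each other (0.83 to 0.96) and were less like pimr15 (0.57 and 0.38 for the pimr59 genes, 0.72 for pimr182). At 0.91 with pimr32, 0.87 with pimr130 and 0.85 with pimr58, pimr182 was not close to the pimr59 genes alone. The pimr36 transcript stood apart, at 0.03 and -0.21 with the pimr59 genes, and was most like pimr15 at 0.81. Its basal replicate 1 and 2 values were nearly level and its Insl3 replicate 2 value was low, unlike in the pimr59 genes, where replicate 2 was above the group mean in both conditions.

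The 8 listed pimr transcripts outside the limit had between 139 and 223 counts over the 6 libraries. Their log2 fold changes were between 1.15 and 1.74, with a median of 1.37 and standard errors from 0.41 to 0.78. All 8 were higher with Insl3 in each of the 3 pairs (20.5% of all tested transcripts), and the groups did not overlap for 4 of them (2.55% of all tested transcripts), pimr148, pimr5, pimr42 and pimr113. The largest value was that of pimr156, with 7, 23 and 10 counts in the basal libraries and 11, 64 and 32 with Insl3. They were chosen on the same contrast, so nothing is read from their larger median. In pimr151, pimr148, pimr156, pimr113 and pimr89 the largest Insl3 value was in replicate 2 and not in replicate 3.

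Of the 29 genes on the pim and Jak/Stat list, 3 had a transcript that could be named. The 29 genes were chosen with earlier results of these data known. All 3 transcripts were named through the study's own list of calls, so they too are a description. The stat3 transcript, whose mammalian counterpart activates PIM genes, had 440, 358 and 212 counts under basal culture against 219, 206 and 148 with Insl3, and means of 12.3 ± 1.16 and 8.57 ± 1.26 CPM (SD, n = 3 each). Its log2 fold change was -0.52 (SE 0.22), opposite in sign to those of the pimr transcripts, and its part in the pimr values was not tested. The interleukin 4 receptor transcript il4r.1 had 4.20, 2.24 and 3.04 CPM and, with Insl3, 4.62, 4.72 and 7.32 CPM (log2 fold change 0.81, SE 0.35), and the interleukin 12 receptor transcript il12rb2l had 3.64, 4.39 and 7.47 CPM against 2.68, 3.13 and 2.00 CPM (log2 fold change -0.98, SE 0.37). In CPM the groups did not overlap for any of these 3 transcripts, with stat3 and il12rb2l lower and il4r.1 higher with Insl3. Among all tested transcripts 2.55% did not overlap in the higher direction, and the share in the lower direction was not computed. Because the 3 were taken from calls on this contrast, nothing is read from this. The genes pim1, pim2 and pim3 were not matched to transcripts here.

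Markers of blood and other cell types were read as far as transcripts could be named. Of 5 blood cell markers 1 had a transcript, mpx, the peroxidase of neutrophils, with 8, 23 and 6 counts in the basal libraries and 2, 81 and 142 with Insl3. It was thus high in the Insl3 libraries in which the pimr members were high and lowest in Insl3 replicate 1, and its deviations correlated with the members' mean at 0.91. Over 369 listed transcripts with a gene name that are no pimr gene, the median of this correlation was 0.06. Many of these transcripts were above mpx, up to 0.99, so a high correlation with the members' mean is not particular to mpx. The part of mpx in the pimr values was not tested. Of 3 liver markers tfa, which encodes transferrin, was named, with 65.6, 103 and 463 CPM in the basal libraries and 24.5, 56.4 and 6.51 CPM with Insl3, and its deviations correlated with the members' mean at -0.06. Its part was not tested either, and both transcripts were named through the study's list. None of the 13 germ cell, 5 Sertoli cell, 5 Leydig cell and 2 myoid cell markers was matched to a transcript here, so the labelled tissue was not checked against them.

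Among 369 listed transcripts with a gene name that are no pimr gene, the 5 whose deviations were most like the members' mean over the 6 libraries were leap2, coro2bb, metap1d, kcnb2 and cr847936.7, with correlations of 0.99, 0.98, 0.98, 0.98 and 0.97. Over all 369 the median correlation was 0.06, and 195 were positive. The closest, leap2, which encodes an antimicrobial peptide known from liver, had 3.30, 5.06 and 4.64 CPM in the basal libraries and 1.07, 2.17 and 3.36 CPM with Insl3. Its order of libraries within the conditions matched that of the members' mean deviation, in which basal replicates 2 and 3 were nearly level. Among single members, pimr58, pimr130, pimr36, pimr18, pimr32 and pimr15 instead had basal replicate 3 above basal replicate 2. The log2 fold change of leap2 was -0.98 (SE 0.45), opposite in sign to those of the members. The potassium channel transcript kcnb2 had 1.48, 2.68 and 2.83 CPM and, with Insl3, 2.52, 4.33 and 8.37 CPM, and its log2 fold change was 1.12 (SE 0.50). Over libraries of this number such likeness is a description, and nothing about shared function follows from it.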

How the data were processed

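Read pairs were mapped by the authors with TopHat2 2.0.12 (GRCz10) and counted per Ensembl transcript with HTSeq 0.6.1, and the deposited values are whole-number counts without normalization. The annotation release, strand setting and counting mode are not given in the sources used here. The sample titles gave group and replicate number. Gene names came from the transcript identifiers and symbols of the study's supplementary list, of which 408 of 409 entries matched the counts by versioned identifier, so most other transcripts were not matched to genes. That list also holds the authors' own means, fold changes and p-values, which were not used. The members and gene lists were chosen with earlier results of these data known. Members, the other listed pimr transcripts, the fixed pathway and marker genes and the 5 transcripts most like the members were named by rule, and single further features were chosen after their values were seen.

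In R 4.3.3 the counts were filtered with filterByExpr (edgeR 4.0.16, minimum count 10), scaled by TMM and fitted with edgeR's quasi-likelihood test of condition alone, and p-values were adjusted after Benjamini and Hochberg over the 36363 transcripts that remained. All 18 listed pimr transcripts passed the filter. Standard errors were derived from each log2 fold change and its F statistic. Pair differences and deviations use log2 CPM with a prior count of 2. DESeq2 1.42.0, RLE factors, library totals, other filters, robust dispersions, a replicate block and each library left out were the alternatives. The scripts were tested on simulated data. At 3 testes per group the smallest p of an exact permutation test (two-sided) is 0.1 if pairs are ignored. A test that keeps the pairs has fewer arrangements, so its smallest p is larger. The replicates are called biological without saying which testes share a male. In the fits of condition alone the p-values therefore set the difference against the spread between these testes. With the replicate block they set it against the spread left after the replicate number is taken out.

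Whether the replicate numbers pair the libraries was checked from the data, since the labels do not say. Over all tested transcripts, deviations from the group means correlated at 0.73, 0.58 and 0.60 for the same-numbered pairs 1, 2 and 3. For other combinations of a basal and an Insl3 library the correlations were between -0.51 and -0.19. Deviations cancel within each group, so positive same-numbered values force negative values elsewhere, and the latter are no separate evidence. Over the 18 listed pimr transcripts the same-numbered values were 0.61, 0.74 and 0.31, and the other combinations lay between -0.68 and 0.18. The numbers were therefore treated as pairs in the pair differences and in the fits with a replicate block. The main fit, the standard errors printed for single transcripts and the pooled SD of the sum do not use the pairing.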

Additional observations from a re-analysis of the deposited data

How the results depend on the processing

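All 150 log2 fold changes of single members under the alternatives were above 0, from 0.46 to 1.86, and the median of the members stayed between 0.70 and 1.29 with a library left out. The members were called on this contrast in these same libraries, so the shared sign is no independent support. The number of members with an unadjusted p under 0.05 was 10 with DESeq2, 10 with the replicate block and, in fits added after seeing the data, 10 with DESeq2 and the replicate block and 10 with library totals and the replicate block, against 3 in edgeR with TMM, the filter and no block. It was 4 with no filter on low counts and 4 with robust dispersions. With each library left out it ran from 0 to 9. Higher with Insl3 at an unadjusted p under 0.05 were 0.542% of all tested transcripts in edgeR with no block. The share was 0.674% with DESeq2 and 7.4% in edgeR with the block, and it is not given for the other fits named here. Because the members were chosen from calls on this contrast, their counts restate that choice, and nothing is read from an excess over these shares. Over all transcripts, in either direction, the unadjusted count was 538 (1.48% of 36363), and it was 538 with DESeq2 and 503 with robust dispersions. It was 4920 (13.5%) with the replicate block, 3429 with DESeq2 and the replicate block, and 5363 with library totals and the replicate block. With no filter on low counts it was 845, out of a larger number tested. It ran from 170 to 1472 with a library left out. The adjusted count was 394 with DESeq2 and the replicate block and 0 in the other fits. Of the 538 calls in edgeR with TMM and no block 36.6% were higher with Insl3, and of the 538 calls made with library totals 21.2% were. The block changed no direction among the members, stat3, il4r.1 and il12rb2l. That was largely set in advance, because each replicate number occurs once per condition and these transcripts were called on this contrast. The sum of the members ranged from 0.67 to 1.24 log2 with a library left out. The cause of these shifts was not tested. Tests of pimr transcripts outside the study's list were not run, because no table used here pairs them with transcript identifiers.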
